A study of Mus musculus with 8 samples.

Results

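Cytochrome c oxidase carries several subunits that exist as tissue isoforms, each isoform encoded by its own gene, and 9 of these genes were followed in the cardiomyocyte RNA of this series: Cox4i1, Cox4i2, Cox6a1, Cox6a2, Cox7a1, Cox7a2, Cox7a2l, Cox8a and Cox8b. They were chosen by symbol, through the Ensembl identifiers of the count table, and are 9 of its 51826 genes. All 9 passed the filter on low counts. The series holds 8 libraries in 4 groups of 2. These are adult mice homozygous for the LncSync null allele (LncSync-/-, here KO), adult wild-type mice (WT), KO embryos and WT embryos at e13.5, a stage of mid-gestation. All carry the strain label C57BL/6, the source is the heart and the cell type given is cardiomyocyte. LncSync is a long noncoding RNA, and the design asks what its loss does to cardiomyocyte transcripts at both ages. No row bears the name LncSync, so its loss was not checked here. The labels state neither the age of the adults nor their sex. They also do not say whether both libraries of a group are from different animals, and the p-values cover only the spread between these libraries, which may be technical.

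Cytochrome c oxidase, complex IV of the respiratory chain, passes electrons from cytochrome c to oxygen and pumps protons across the inner mitochondrial membrane. Its catalytic core is encoded by mitochondrial DNA, and a ring of small nuclear-encoded subunits surrounds that core. For subunits VIa, VIIa and VIII mammals have a ubiquitous form, often called the liver form, and a form of heart and skeletal muscle. In the mouse heart the muscle forms (Cox6a2, Cox7a1 and Cox8b) replace much of the ubiquitous forms (Cox6a1, Cox7a2 and Cox8a) as the muscle matures. Subunit IV has a ubiquitous isoform, Cox4i1, and a second one, Cox4i2, known from lung and from pericytes and regulated by oxygen. Cox7a2l encodes a relative of subunit VIIa, described as a factor that joins complex IV to complex III in respiratory supercomplexes. Whether its product does so in mice of this strain label was not examined.

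The 3 muscle forms all lie on mouse chromosome 7, far apart from one another. By GENCODE vM21 on the mm10 build (GRCm38), Cox7a1 spans chr7:30184144-30186078, Cox6a2 chr7:128205435-128206387 and Cox8b chr7:140898945-140900446. The ubiquitous partners are spread over 3 other chromosomes, with Cox6a1 at chr5:115345642-115348981, Cox7a2 at chr9:79755361-79759878 and Cox8a at chr19:7215153-7217616. Cox4i1 lies at chr8:120668222-120674207, Cox4i2 at chr2:152754173-152765037 and Cox7a2l at chr17:83501918-83517330. Start regions of 6 of the 9 genes were given in the RefSeq promoter table (GRCm38.p6), and those of Cox7a1 and Cox8b, which rose together with age, are shown with those of their ubiquitous partners and of Cox6a1. Each stretch holds 220 bases, from base 250 to base 31 before the annotated start, read in the direction of the gene. Capitals mark matches, on either strand, to the motif CCAAT or to GCATGC, the centre of the palindrome bound by nuclear respiratory factor 1.
Cox7a1, chr7:30183921-30184140, strand plus: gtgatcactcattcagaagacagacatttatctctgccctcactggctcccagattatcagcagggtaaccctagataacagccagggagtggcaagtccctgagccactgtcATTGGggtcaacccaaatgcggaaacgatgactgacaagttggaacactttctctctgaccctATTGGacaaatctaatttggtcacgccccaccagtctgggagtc
Cox7a2, chr9:79759884-79760103, strand minus: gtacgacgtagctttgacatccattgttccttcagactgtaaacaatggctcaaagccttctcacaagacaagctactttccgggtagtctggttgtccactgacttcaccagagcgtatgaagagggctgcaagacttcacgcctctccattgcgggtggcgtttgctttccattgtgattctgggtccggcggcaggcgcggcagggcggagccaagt
Cox8b, chr7:140900477-140900696, strand minus: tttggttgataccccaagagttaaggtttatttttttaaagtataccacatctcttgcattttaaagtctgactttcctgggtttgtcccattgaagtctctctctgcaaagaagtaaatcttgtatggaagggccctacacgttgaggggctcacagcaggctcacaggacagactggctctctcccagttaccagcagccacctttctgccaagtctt
Cox8a, chr19:7217647-7217866, strand minus: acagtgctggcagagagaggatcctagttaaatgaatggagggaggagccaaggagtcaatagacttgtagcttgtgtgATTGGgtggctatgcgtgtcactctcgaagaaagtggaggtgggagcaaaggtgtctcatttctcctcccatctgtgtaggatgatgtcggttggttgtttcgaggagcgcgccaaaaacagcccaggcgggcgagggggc
Cox6a1, chr5:115348989-115349208, strand minus: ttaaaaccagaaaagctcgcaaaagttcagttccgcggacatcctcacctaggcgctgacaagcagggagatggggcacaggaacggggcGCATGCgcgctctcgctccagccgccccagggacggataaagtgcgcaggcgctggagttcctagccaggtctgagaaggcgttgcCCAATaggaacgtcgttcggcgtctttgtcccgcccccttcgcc
The sequence of Cox6a1 holds 1 match to GCATGC, at bases 160 to 155 before the start, and 5.57% of the 32851 windows of that length in the table hold one. CCAAT occurs in 31% of all windows, and has 2 matches at Cox7a1, 1 at Cox8a and 1 at Cox6a1. Neither AAGGTCA, a core of estrogen-related receptor sites (3.67% of all windows), nor the MEF2 motif (2.6%), nor CCGGAAG (5%), nor CAGCTG (11.4%) has a match in these windows. The G and C content runs from 45.0% at Cox8b to 61.4% at Cox6a1. These are properties of the sequence, and no measurement of factor binding was made.

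Totals per library ran from 16495084 to 20395600 estimated counts. Levels are given as CPM, the count relative to a library size scaled by TMM, and as CPM per kilobase of coding transcript where genes are set side by side. All 10 cardiomyocyte markers had counts in all 8 libraries. Their summed level was 54620 to 78379 CPM in adult libraries and 8287 to 15225 CPM at e13.5. Myh6 alone stood at 25158 and 37267 CPM in KO adults and 42758 and 41917 CPM in WT adults. Of the 10 markers, 5 rose and 0 fell in KO and 4 rose and 0 fell in WT, where 41.4% and 38.9% of all genes were called. Marker sums of other cell types also differed with age. Erythroid markers, of which 9 of 9 fell in both genotypes, summed to 16.8 to 180 CPM in adults and 20165 to 160022 CPM at e13.5, and fibroblast markers, of which 2 of 8 fell and 1 rose in KO and 3 fell in WT, to 403 to 1031 CPM in adults and 418 to 3699 CPM at e13.5. In bulk RNA a change in the number of cells of a type and a change in RNA per cell cannot be told apart. The muscle forms are also expressed in skeletal muscle, and Cox7a1 and Cox8b in brown fat, so defining genes of those tissues were read. Myh4 was at 0 counts in all 8 libraries and Myh1 had at most 3 counts in an adult library, while Ucp1 and Adipoq were at 0 in all 4 adult libraries. The 11 skeletal muscle markers, some of them also cardiac genes, summed to 3086 to 3973 CPM in adults and 278 to 1535 CPM at e13.5, and the 8 adipocyte markers to 316 to 661 CPM in adults and 60.2 to 125 CPM at e13.5. Of the 8 skeletal muscle markers tested, 1 rose and 3 fell in KO and 1 rose and 5 fell in WT, with median log2 fold changes of -1.99 in KO and -3.12 in WT. The one that rose in both was Ckm, the muscle creatine kinase, which the heart also expresses, and it made up most of the adult sum, at 3238 and 2486 CPM in KO adults and 2803 and 3028 CPM in WT adults. Of the adipocyte markers 2 were tested and both rose in each genotype. Cidea, a lipid droplet protein known from brown fat, stood at 36.0 and 20.9 CPM in KO adults and 23.6 and 21.7 CPM in WT adults, against 2.56 and 2.85 CPM in KO embryos and 4.38 and 1.1 CPM in WT embryos, with log2 fold changes of 3.39 ± 0.67 in KO and 3.05 ± 0.66 in WT (edgeR, adjusted p = 0.00393 and 0.00647). Fabp4, a fatty acid carrier of fat cells and of endothelium, had 2.19 ± 0.51 in KO and 2.38 ± 0.52 in WT (edgeR, adjusted p = 0.00872 and 0.00653). The part of fat cells in the age changes of Cox7a1 and Cox8b was not tested.

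The muscle isoforms were all higher in adults than at e13.5 in both genotypes. Cox6a2, the muscle form of subunit VIa, lay at 2220 and 1317 CPM per kilobase in the KO adult libraries and at 1537 and 1228 CPM per kilobase in the WT adult libraries. At e13.5 it lay at 455 and 235 CPM per kilobase in KO and at 608 and 230 CPM per kilobase in WT. All 4 adult libraries thus stood above all 4 embryonic ones, and Cox6a2 was the most abundant of the muscle forms at both ages. The log2 fold change of adult over e13.5 was 2.36 ± 0.62 in KO (edgeR, adjusted p = 0.0139) and 1.72 ± 0.60 in WT (adjusted p = 0.0463), where values after ± are standard errors and p-values are adjusted over the 16623 genes tested.

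Cox7a1, the muscle form of subunit VIIa, lay at 795 and 465 CPM per kilobase in KO adults and at 569 and 366 CPM per kilobase in WT adults. In the embryos it lay at 73.6 and 27.8 CPM per kilobase in KO and at 106 and 35.8 CPM per kilobase in WT, so the ages did not overlap. It rose by 3.64 ± 0.71 on the log2 scale in KO (edgeR, adjusted p = 0.00362), a 12.4-fold change, and by 2.72 ± 0.68 in WT (adjusted p = 0.0123), a 6.58-fold change. Cox8b, the muscle form of subunit VIII, which is a pseudogene in humans, stood at 609 and 324 CPM per kilobase in KO adults and at 362 and 307 CPM per kilobase in WT adults. It was the least abundant of the muscle forms at e13.5, with 45.0 and 22.3 CPM per kilobase in KO and 67.5 and 29.4 CPM per kilobase in WT. Every adult library stood above every embryonic one here too. Its log2 fold change was 3.80 ± 0.62 in KO (edgeR, adjusted p = 0.00148) and 2.79 ± 0.59 in WT (adjusted p = 0.00569), the largest rise among the 9 genes in both genotypes.

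**Figure D1:**
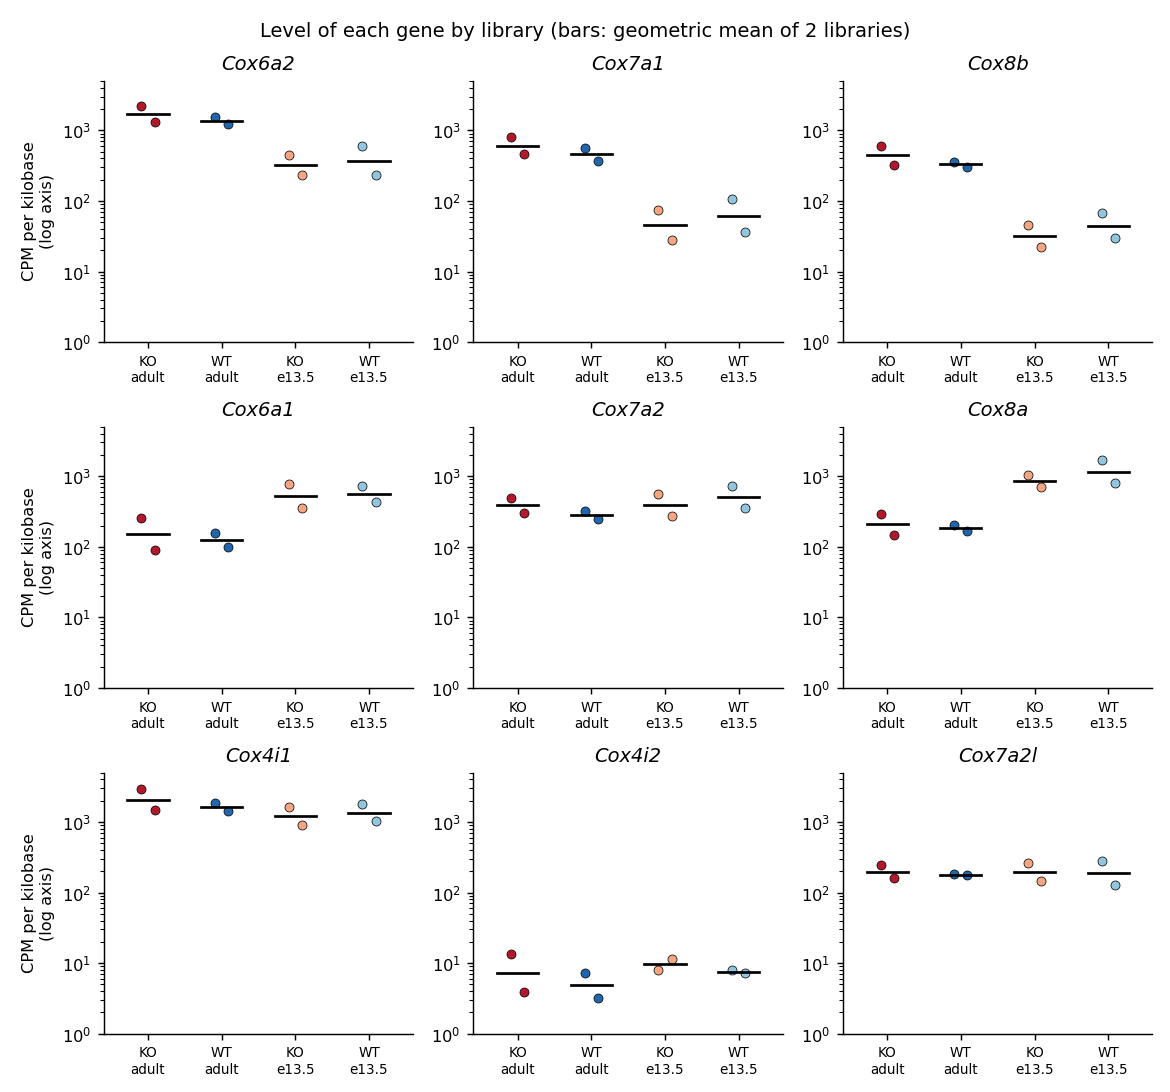
Level of each of the 9 genes in CPM per kilobase (log axis) in the 2 libraries of each group, with bars at the geometric mean. The top row holds the muscle forms, higher in all 4 adult libraries, the middle row their ubiquitous partners, and the bottom row Cox4i1, Cox4i2 and Cox7a2l.

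Of the ubiquitous partners, Cox8a fell in both genotypes and Cox6a1 in WT, while Cox7a2 passed the test in neither. Cox8a stood at 293 and 149 CPM per kilobase in KO adults and at 202 and 167 CPM per kilobase in WT adults, against 1028 and 705 CPM per kilobase in KO embryos and 1675 and 803 CPM per kilobase in WT embryos. Every adult library stood below every embryonic one. Cox8a fell by 1.97 ± 0.54 on the log2 scale in KO (edgeR, adjusted p = 0.0175) and by 2.75 ± 0.56 in WT (adjusted p = 0.00484). Cox6a1 stood at 258 and 90.4 CPM per kilobase in KO adults and at 157 and 98.3 CPM per kilobase in WT adults, against 778 and 350 CPM per kilobase in KO embryos and 729 and 429 CPM per kilobase in WT embryos. It was lower in all 4 adult libraries, with a log2 fold change of -2.18 ± 0.64 in WT that passed (edgeR, adjusted p = 0.0240) and one of -1.69 ± 0.63 in KO that missed the threshold (adjusted p = 0.0547). Cox7a2 stood at 490 and 303 CPM per kilobase in KO adults and at 320 and 249 CPM per kilobase in WT adults, against 564 and 275 CPM per kilobase in KO embryos and 716 and 349 CPM per kilobase in WT embryos. Its KO libraries overlapped between ages and its WT libraries did not, and its log2 fold changes of -0.08 ± 0.54 in KO and -0.90 ± 0.54 in WT passed in neither genotype (edgeR, adjusted p = 0.912 and 0.206).

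Of the 9 genes, 3 rose and 1 fell in KO adults over KO embryos, where 20.5% of all genes tested were called higher and 20.9% lower (41.4% in all). In WT, 3 rose and 2 fell, where 17.8% of all genes tested were called higher and 21.1% lower (38.9% in all). Calls were thus common among all genes, and the median log2 fold change over all genes was -0.15 in KO and -0.26 in WT. The make-up of the libraries also differed between ages. Mitochondrially encoded genes took 22.6% to 28.8% of counts in adults and 3.21% to 4.36% at e13.5, and ribosomal RNA genes 0.664% to 0.815% in adults and 5.6% to 13% at e13.5. With mitochondrial, ribosomal RNA and haemoglobin genes left out, the log2 fold changes of the muscle forms in KO were 2.27 for Cox6a2, 3.55 for Cox7a1 and 3.71 for Cox8b (edgeR, adjusted p = 0.0174, 0.00343 and 0.00134). In WT they were 1.72, 2.71 and 2.79 (edgeR, adjusted p = 0.0519, 0.0117 and 0.00516). The call on Cox6a2 in WT was lost under 3 changes of scaling (edgeR, adjusted p = 0.0519 to 0.0653) and when any 1 of 5 libraries was left out (adjusted p = 0.0653 to 0.193), while Cox6a1 in KO, not called as reported, was called under all 8 alternatives of filter, scaling, tool, library set and block. With 1 library left out, Cox6a1 in KO was called in 4 of 8 fits, with log2 fold changes from -2.64 to -0.99 (edgeR, adjusted p up to 0.285). Calls in WT numbered 2 of the 9 without WT adult replicate 1, when Cox6a1, Cox6a2 and Cox7a1 were lost (edgeR, adjusted p = 0.0853, 0.193 and 0.0692), and without WT adult replicate 2, when Cox6a1, Cox6a2 and Cox8a were lost (adjusted p = 0.178, 0.123 and 0.0643). Cox6a1 in WT was also lost without WT e13.5 replicate 1 (edgeR, adjusted p = 0.101). In KO, Cox6a2 was lost without KO adult replicate 1 or KO e13.5 replicate 2 (edgeR, adjusted p = 0.0817 and 0.0564), and Cox8a without KO adult replicate 2 or KO e13.5 replicate 1 (adjusted p = 0.141 and 0.0643). Cox8b was called in both genotypes whichever of the 8 libraries was left out.

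The ratio of the isoforms within a library does not depend on how libraries are scaled to one another. Cox6a2 over Cox6a1, as counts per kilobase, was 8.60 and 14.6 in KO adults and 9.76 and 12.5 in WT adults. At e13.5 it was 0.586 and 0.672 in KO and 0.834 and 0.535 in WT. The muscle form was thus the minor one in all 4 embryonic libraries and the major one in all 4 adult libraries. The mean log2 ratio was 3.47 ± 0.34 in adults and -0.63 ± 0.28 at e13.5 (SD, n = 4 each), a difference of 4.10 or 17.2-fold (exact two-sided permutation test, p = 0.0286).

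Cox7a1 over Cox7a2 was 1.62 and 1.53 in KO adults and 1.78 and 1.47 in WT adults, against 0.131 and 0.101 in KO embryos and 0.149 and 0.103 in WT embryos. The mean log2 ratio was 0.68 ± 0.12 in adults and -3.07 ± 0.27 at e13.5 (SD, n = 4 each), a 13.4-fold difference (exact two-sided permutation test, p = 0.0286). Cox7a1 thus made up 59.5% to 64.0% of its pair per length in the adult libraries, where Cox6a2 made up 89.6% to 93.6% of its own. Cox8b over Cox8a showed the largest difference between ages of the 4 ratios. It was 2.08 and 2.18 in KO adults and 1.79 and 1.84 in WT adults, against 0.0438 and 0.0317 in KO embryos and 0.0403 and 0.0366 in WT embryos. The mean log2 ratio was 0.98 ± 0.14 in adults and -4.72 ± 0.20 at e13.5 (SD, n = 4 each), a 51.9-fold difference (exact two-sided permutation test, p = 0.0286). As a share of the subunit VIII transcripts per length, Cox8b made up 67.5% and 68.5% in KO adults and 64.2% and 64.8% in WT adults, and 4.19% and 3.07% in KO embryos and 3.87% and 3.53% in WT embryos.

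**Figure D2:**
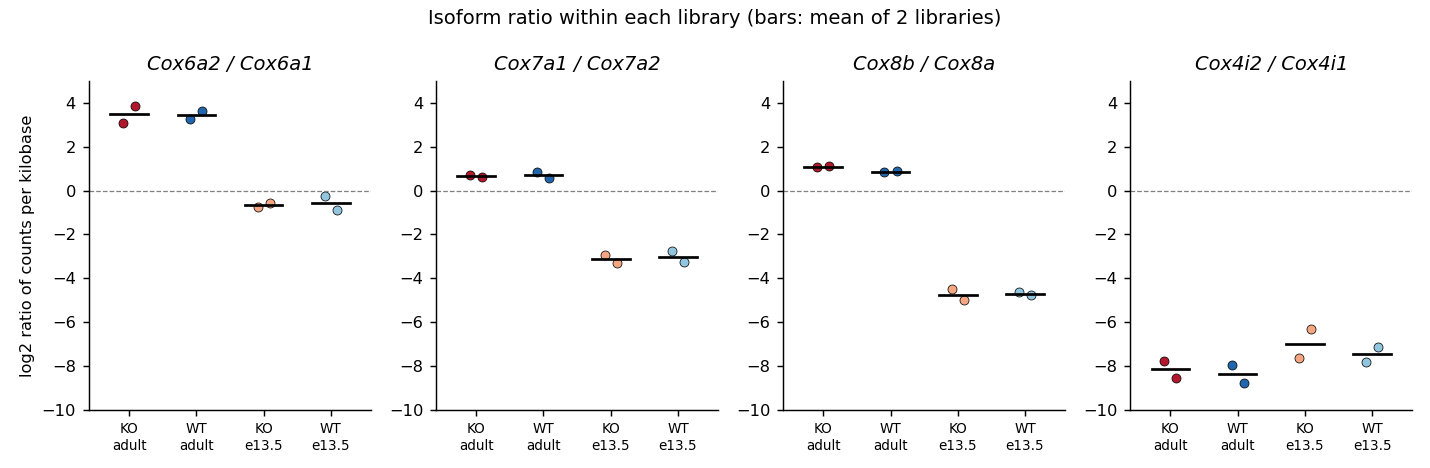
Log2 ratio of counts per kilobase of the first gene over the second in each library, by group, with bars at the mean of 2 libraries. In the first 3 panels all adult libraries stand above all embryonic ones, while Cox4i2 over Cox4i1 overlaps between ages.

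The value of 0.0286 is the smallest that 4 libraries against 4 can give, over 70 arrangements, and 4 ratios were tested. The 95% Wilson intervals of the shares, which cover counting error only, were at most 3.31 percentage points wide. Using the length of all annotated exons adds 0.30 to the log2 ratio of Cox6a2 over Cox6a1. This puts WT e13.5 replicate 1 (log2 ratio -0.26) just above an equal share. The same choice adds 0.23 for Cox7a1 over Cox7a2, 0.17 for Cox8b over Cox8a and 0.95 for Cox4i2 over Cox4i1. Ratios and shares per length thus depend on the length used, while differences between libraries in log2 ratio stay as they are. At e13.5 the fibroblast markers spanned 418, 3646, 886 and 3699 CPM in KO replicates 1 and 2 and WT replicates 1 and 2. The share of haemoglobin genes was 15.5%, 3.19%, 4.65% and 2.89%, in the same order. The part of other cell types in the difference between ages was not tested.

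The levels of complex IV genes also differed between the 2 libraries of a group in a shared way. The 7 nuclear subunits without a muscle isoform (Cox5a, Cox5b, Cox6b1, Cox6c, Cox7b, Cox7c and Ndufa4) had a geometric mean of 1068 and 705 CPM per kilobase in KO adults and 811 and 590 CPM per kilobase in WT adults. At e13.5 it was 649 and 304 CPM per kilobase in KO and 803 and 367 CPM per kilobase in WT. Library 1 was the higher one in each group. The same held for the summed level of cytochrome c and complex III genes, at 7878 and 6321 CPM in KO adults and 6385 and 5779 CPM in WT adults. At e13.5 that sum was 5555 and 2067 CPM in KO and 5009 and 2415 CPM in WT. Cardiomyocyte markers differed the other way in KO adults, with 54620 and 77809 CPM. The difference was thus not particular to complex IV. Each of the 9 genes was also set against the mean of the 7 common subunits in the same library, a comparison added after the data were seen.

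Relative to the common subunits, 7 of the 9 genes did not overlap between ages, each with an exact two-sided permutation p of 0.0286. This is the smallest p that 4 against 4 libraries can give, and it became 0.0367 after Benjamini-Hochberg adjustment over the 9 genes. The share of all genes tested that would stand apart on this scale was not computed. The count of 7 is therefore not a result about these genes. In edgeR 41.4% of all genes were called with age in KO and 38.9% in WT. The common subunits themselves had median log2 fold changes with age of 0.85 in KO and 0.32 in WT. A gene with little change in CPM thus tends to stand lower in adults on this scale. Cox7a2l had edgeR log2 fold changes of -0.02 in KO and -0.20 in WT. Cox8b was 6.48-fold higher in adults on this scale, Cox7a1 6.31-fold and Cox6a2 2.78-fold. Cox8a was 8.01-fold lower, Cox6a1 6.19-fold and Cox7a2 2.12-fold. Cox7a2 thus stood lower in adults within complex IV transcripts, with relative log2 counts of -1.0 and -1.09 in KO adults and -1.22 and -1.12 in WT adults, against -0.08 and -0.02 in KO embryos and -0.04 and 0.06 in WT embryos. Cox7a2l was 1.62-fold lower in adults. It stood at -1.28 and -1.27 in KO adults and -1.27 and -0.89 in WT adults. In the embryos it stood at -0.46 and -0.17 in KO and -0.63 and -0.65 in WT. For Cox4i1 (p = 0.257, exact two-sided permutation test) and Cox4i2 (p = 0.0857, exact two-sided permutation test) the ages overlapped.

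**Figure D3:**
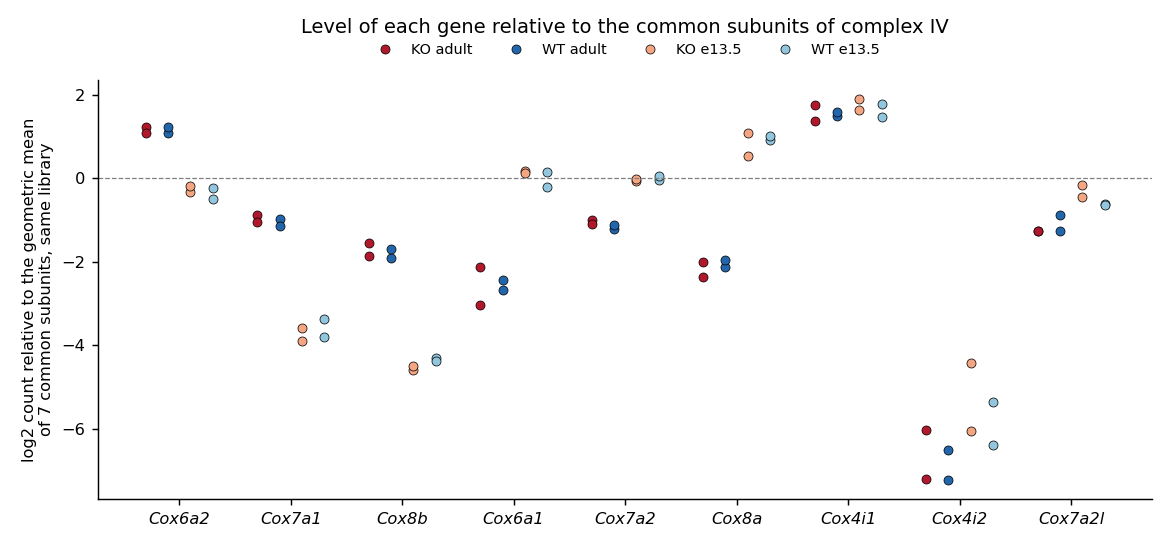
Log2 count of each gene relative to the geometric mean count of the 7 common subunits in the same library (1 point per library, 4 groups). Positions may be compared between groups of a gene, not between genes, since counts are not divided by length. Cox6a2, Cox7a1 and Cox8b stand higher in all adult libraries, Cox6a1, Cox7a2, Cox8a and Cox7a2l lower.

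The sum of both forms of a subunit showed whether the rise of one form matched the fall of the other. Cox7a1 and Cox7a2 together stood at 1285 and 768 CPM per kilobase in KO adults and 889 and 615 CPM per kilobase in WT adults, against 638 and 303 CPM per kilobase in KO embryos and 822 and 385 CPM per kilobase in WT embryos. Relative to the common subunits this sum was 1.09-fold higher in adults (p = 0.0571, exact two-sided permutation test), and that of Cox6a1 and Cox6a2 was 1.19-fold higher (p = 0.0286, exact two-sided permutation test). For subunit VIII the sum was lower. Cox8a and Cox8b together stood at 902 and 473 CPM per kilobase in KO adults and 564 and 474 CPM per kilobase in WT adults, against 1073 and 727 CPM per kilobase in KO embryos and 1742 and 832 CPM per kilobase in WT embryos. Relative to the common subunits the sum was 2.80-fold lower in adults (p = 0.0286, exact two-sided permutation test, 5 sums tested). On that scale the ages did not overlap, while in CPM per kilobase they did, with 902 in a KO adult library above 727 and 832 at e13.5. In group means of CPM per kilobase the drop in Cox8a was larger than the gain in Cox8b, in both genotypes. The sums rest on the lengths used, 360 bases for Cox8b and 550 for Cox8a, and no other length was tried for them.

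Subunit IV showed no such exchange. Cox4i1 had the highest group mean of the 9 genes in all 4 groups per kilobase of coding transcript. It stood at 2923 and 1482 CPM per kilobase in KO adults and 1838 and 1431 CPM per kilobase in WT adults, against 1618 and 913 CPM per kilobase in KO embryos and 1806 and 1023 CPM per kilobase in WT embryos. This ranking depends on the length used, which is 745 bases here and 1550 over all annotated exons, against 680 by both for Cox6a2. The ages overlapped for Cox4i1, and its log2 fold changes were 0.80 ± 0.55 in KO and 0.21 ± 0.55 in WT (edgeR, adjusted p = 0.262 and 0.787). Cox4i1 overlaps Emc8 on the opposite strand, and reads in the overlap cannot be told apart without strand. Emc8 had 6131 counts over all 8 libraries, against 176529 for Cox4i1. Gm20388, annotated as protein-coding, overlaps Cox4i1 on the same strand and had 2325 counts over all 8 libraries.

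Cox7a2l stood at 242 and 160 CPM per kilobase in KO adults and 184 and 175 CPM per kilobase in WT adults. At e13.5 it stood at 259 and 148 CPM per kilobase in KO and 284 and 128 CPM per kilobase in WT. The ages overlapped in both genotypes, and the log2 fold changes of -0.02 ± 0.51 in KO and -0.20 ± 0.51 in WT did not pass (edgeR, adjusted p = 0.983 and 0.783).

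Cox4i2 was the least abundant of the 9, with 148 and 43 counts in KO adults, 91 and 34 in WT adults, 93 and 214 in KO embryos and 125 and 155 in WT embryos. Its log2 fold changes with age of -0.18 ± 0.66 in KO and -0.53 ± 0.67 in WT did not pass (edgeR, adjusted p = 0.839 and 0.547). In CPM Cox4i2 overlapped between ages in KO, while in WT the adult libraries stood below the embryonic ones. Cox4i2 made up 0.455% and 0.263% of subunit IV transcripts per length in KO adults and 0.393% and 0.224% in WT adults, against 0.490% and 1.25% in KO embryos and 0.435% and 0.709% in WT embryos. The mean log2 ratio of Cox4i2 over Cox4i1 was -8.27 ± 0.48 in adults and -7.23 ± 0.69 at e13.5 (SD, n = 4 each), a difference of -1.04 that did not pass (exact two-sided permutation test, p = 0.0571). Without WT e13.5 replicate 1 the difference was -1.24 and passed (exact two-sided permutation test, p = 0.0286). Markers of smooth muscle and pericytes, the cells that Cox4i2 is known from, summed to 1527, 1334, 1417 and 1092 CPM in the adult libraries (KO replicates 1 and 2, then WT replicates 1 and 2), and to 2743, 1412, 2432 and 1411 CPM at e13.5 in the same order. Of these 11 markers Higd1b was at 0 counts in all 4 embryonic libraries and at 104, 49, 86 and 43 counts in the adult ones. With age 5 of the 11 rose and 3 fell in each genotype, with median log2 fold changes of 2.17 in KO and 1.28 in WT. The genes that fell were Acta2 with -2.84 ± 0.61 in KO and -3.78 ± 0.64 in WT, Tagln with -4.02 ± 0.43 in KO and -4.07 ± 0.43 in WT, and Cnn1. Those that rose in both genotypes were Higd1b, Notch3, Abcc9 and Rgs5, the last with 3.32 ± 0.76 in KO and 3.27 ± 0.75 in WT. Kcnj8 rose in KO and Myh11 in WT. Abcc9 averaged 452 CPM in KO adults and 514 CPM in WT adults, against 5.05 and 3.98 CPM for Higd1b. Which cells the RNA of these genes came from was not tested. The part of smooth muscle cells and pericytes in the level of Cox4i2 was not tested either.

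Between KO and WT none of the 9 genes passed the test at either age. At e13.5 the log2 fold changes of KO over WT ran from -0.53 ± 0.56 for Cox8b to 0.37 ± 0.66 for Cox4i2, and 0 of 9 were called (edgeR, adjusted p = 1 for each), where 0.0722% of all genes were called. In adults they ran from 0.16 ± 0.51 for Cox7a2l to 0.72 ± 0.67 for Cox4i2, and again 0 of 9 were called (adjusted p = 1 for each), where 0.0481% of all genes were called. All 9 adult values were positive, where 53.7% of all genes were, with a median of 0.43 against 0.01 over all genes. All 7 common subunits were positive too, with a median of 0.38. So were 10 of 10 cytochrome c and complex III genes (median 0.32) and 8 of 8 endothelial markers (0.48). Of 13 regulators of mitochondrial gene expression, 2 were positive. At e13.5 the lean was the other way, with 1 of the 9 positive and a median of -0.28, where 43.2% of all genes were positive. KO adult replicate 1 had the highest level of all 9 genes among the adult libraries, and without it, when KO adult replicate 2 was set against both WT libraries, 8 of the 9 adult values turned negative, from -0.01 to -0.50. Set beside the WT library of the same number, KO adult replicate 1 was higher for 9 of 9 genes and KO adult replicate 2 for 6 of 9. For each age and for the interaction, 0 of the 9 had an unadjusted p under 0.05 in edgeR and DESeq2 called 0. The misses do not show that the genotypes act alike. The 95% interval for Cox6a2 in adults ran from -0.96 to 1.67, and that for Cox8b from -0.75 to 1.71. The interaction of genotype and age called 0 of the 9, with values from 0.18 ± 0.73 for Cox7a2l to 1.01 ± 0.78 for Cox8b (edgeR, adjusted p = 1 for each), where 0% of all genes were called, 265 genes had an unadjusted p under 0.05 and DESeq2 called 7.

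**Figure D4:**
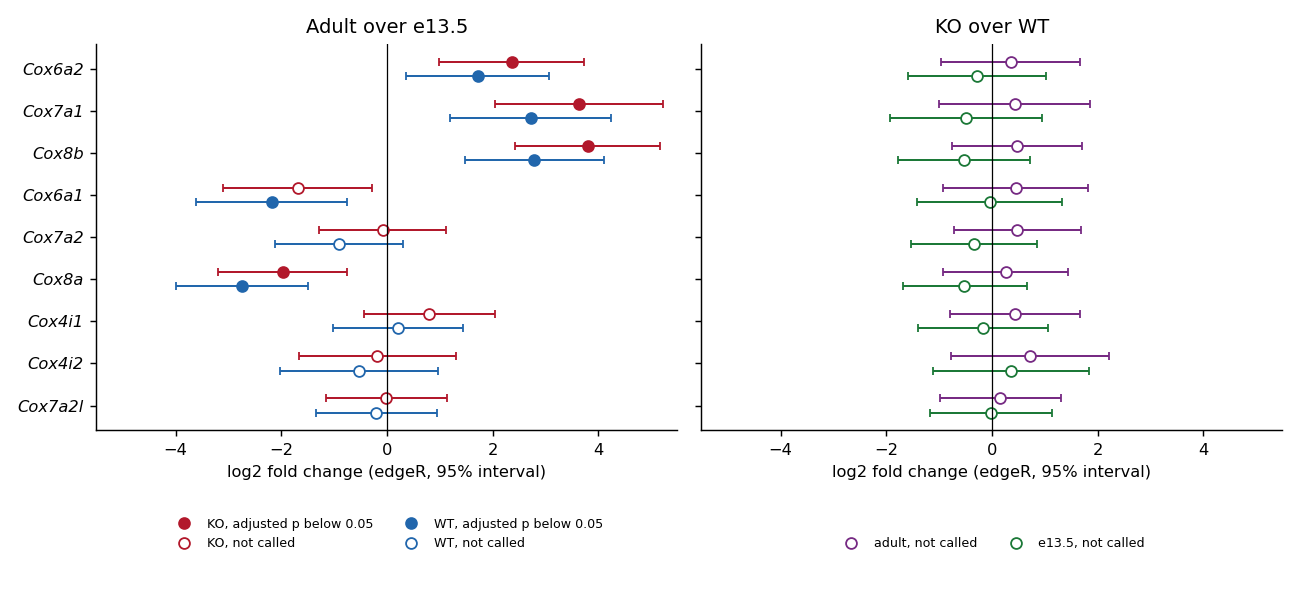
Log2 fold change of each gene from edgeR with its 95% interval, for adult over e13.5 in KO and in WT (left) and for KO over WT in adults and at e13.5 (right). Filled points have an adjusted p below 0.05 over all genes tested, and all 18 intervals on the right include 0.

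The isoform ratios were also set side by side between the genotypes. The KO minus WT difference in log2 ratio was 0.02 in adults and -0.09 at e13.5 for Cox6a2 over Cox6a1, and -0.04 in adults and -0.11 at e13.5 for Cox7a1 over Cox7a2. For Cox8b over Cox8a it was 0.23 in adults and -0.04 at e13.5, and for Cox4i2 over Cox4i1 0.22 in adults and 0.50 at e13.5. The libraries of KO and WT overlapped in all of these except Cox8b over Cox8a in adults, where 2.08 and 2.18 in KO stood above 1.79 and 1.84 in WT. The pooled SD of the log2 ratio within groups was 0.38 for Cox6a2 over Cox6a1, 0.25 for Cox7a1 over Cox7a2, 0.17 for Cox8b over Cox8a and 0.67 for Cox4i2 over Cox4i1. No test of these differences was run, and the smallest p of an exact permutation test with 2 libraries against 2 is 0.333. The change with age was 17.8-fold in KO and 16.5-fold in WT for Cox6a2 over Cox6a1, 13.7-fold and 13.1-fold for Cox7a1 over Cox7a2, and 57.1-fold and 47.3-fold for Cox8b over Cox8a.

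Other genes of complex IV were described from lists. All 3 mitochondrially encoded subunits rose in both genotypes, with mt-Co1, the catalytic subunit, at 4.76 ± 0.68 in KO and 4.42 ± 0.67 in WT on the log2 scale (edgeR, adjusted p = 8.04e-04 and 0.00113). The medians of the 3 were 4.85 in KO and 4.44 in WT. Of the 7 common nuclear subunits, 1 rose in KO, Ndufa4 with 1.89 ± 0.58 (edgeR, adjusted p = 0.0274), and 0 in WT, where 0 had an unadjusted p under 0.05 and DESeq2 called 0. Their median log2 fold changes were 0.85 in KO and 0.32 in WT. Of 26 assembly factors tested, 4 rose and 1 fell in KO, and 3 rose and 1 fell in WT. The calls are 19.2% of them in KO and 15.4% in WT, where 41.4% and 38.9% of all genes were called, and their medians were -0.01 in KO and 0.01 in WT. Taco1, which activates translation of the mt-Co1 message, had 3.43 ± 0.52 in KO and 3.15 ± 0.52 in WT, Coa5 had 2.68 ± 0.64 and 1.96 ± 0.62, and Sco2, a copper chaperone, had 1.83 ± 0.52 and 1.44 ± 0.51. The genes that fell, named after their values were seen, were Cox18 in KO with -1.46 ± 0.47 and Pet100 in WT with -1.91 ± 0.59. Of 10 cytochrome c and complex III genes edgeR called 0 in either genotype and DESeq2 called 0, with an unadjusted p under 0.05 for 1 in KO and 0 in WT. Their medians were 0.84 in KO and 0.41 in WT. The most abundant of them, Uqcrc1 and Uqcrc2, core subunits of complex III, averaged 1637 and 1168 CPM in KO adults and 1437 and 1137 CPM in WT adults, against 862 and 568 CPM in KO embryos and 734 and 504 CPM in WT embryos.

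Of 13 regulators of mitochondrial gene expression, 6 rose and 1 fell in KO, and 5 rose and 1 fell in WT. The calls are 53.8% of them in KO and 46.2% in WT, where 41.4% and 38.9% of all genes were called, and their median log2 fold changes were 1.56 in KO and 1.05 in WT. Esrra, the estrogen-related receptor alpha, stood at 275 and 154 CPM in KO adults and 206 and 162 CPM in WT adults, against 7.31 and 4.95 CPM in KO embryos and 8.48 and 6.23 CPM in WT embryos, with log2 fold changes of 5.13 ± 0.54 in KO and 4.65 ± 0.53 in WT (edgeR, adjusted p = 2.61e-04 and 3.72e-04). Ppara, a nuclear receptor for fatty acids, had 4.15 ± 0.58 in KO and 4.53 ± 0.58 in WT, and the muscle transcription factor Mef2d had 3.42 ± 0.50 and 2.79 ± 0.48. The gene that fell, Nrf1, named after its values were seen, encodes nuclear respiratory factor 1 and had -1.53 ± 0.41 in KO and -1.38 ± 0.41 in WT.

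The patterns over the 8 libraries closest to the mean of Cox6a2, Cox7a1 and Cox8b were sought among 10944 protein-coding genes, as the root mean square distance between centred log2 CPM values. They were those of Myadml2 (0.19), Gstk1 (0.21), S100a1, a calcium-binding protein of heart muscle (0.22), Fabp3, the heart fatty acid binding protein (0.23), and Hras (0.25). The muscle forms themselves stood at 0.41 for Cox6a2, 0.22 for Cox7a1 and 0.23 for Cox8b from their mean. Closest to Cox4i2 were Ccnd1 (0.20), Srpx2 (0.24) and Rplp2 (0.24).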

How the data were processed

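RNA of heart cardiomyocytes from KO and WT mice, adult and e13.5, was sequenced in 8 libraries. Per the labels' protocols, 200 ng of total RNA was amplified with Smart-seq2 and made into libraries with a SMARTer kit. The authors deposited a table of estimated counts per gene, which is the expected count of RSEM on mm10 per the submitters' processing notes. The sources used here give no version of RSEM, no aligner and no annotation. The values are whole numbers with differing totals (16495084 to 20395600) and were read as not scaled between libraries. Of 51826 identifiers, 51633 had a symbol in GENCODE vM21, and the other 193 took at most 0.0184% of a library. Coa8 was matched by its synonym.

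Counts were analysed with R 4.3.3, edgeR 4.0.16, limma 3.58.1 and DESeq2 1.42.0, while ratios, figures and alignments used Python 3.11.15, BLAST 2.17.0 and matplotlib 3.10.9. Genes were kept by filterByExpr (16623), scaled by TMM (factors 0.770 to 1.44) and fitted by quasi-likelihood with 4 group means in all 8 libraries. The fit was also run on simulated counts, drawn with the fitted spread and with far fewer changed genes than were called with age here. That run therefore cannot show that the scaling and the spread are right for these data. Tests were two-sided, and a call meant p below 0.05 after Benjamini-Hochberg adjustment across every gene tested. Isoform ratios used counts plus 0.5, divided by the median length of a gene's protein-coding transcripts, and exact permutation tests over libraries. No near-identical copy of the 9 genes (95% identity along 50% of the transcript or more) was found by BLAST. Below that limit, the transcribed processed pseudogene AC148174.2 matched Cox6a1 at 92.7% identity along 86.9% of the transcript. It has no row among the deposited counts, and its part in the counts of Cox6a1 was not tested. The members and lists were chosen with earlier results of these data known. Named genes were the 9 members, up to 3 called genes per pathway list by smallest p or the 2 of highest level where none was called, and the 5 or 3 nearest patterns. The motif GCATGC replaced a longer form of the same site after the longer form had been searched. Alternatives were other filters (none, or at least 5 CPM in at least 2 libraries), scalings, DESeq2, fewer libraries, a replicate block, a pseudocount of 2 and all-exon lengths.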

Additional observations from a re-analysis of the deposited data

How the results depend on the processing

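The change of the 3 muscle isoform ratios with age kept its direction with a pseudocount of 2 and with each library left out, whereas directions that did not pass the test often turned with 1 library. With 1 library left out, adult minus e13.5 in log2 ratio was 3.97 to 4.23 for Cox6a2 over Cox6a1, 3.67 to 3.85 for Cox7a1 over Cox7a2, 5.61 to 5.77 for Cox8b over Cox8a and -1.24 to -0.73 for Cox4i2 over Cox4i1. KO minus WT in log2 ratio was then -0.41 to 0.23 at e13.5 and -0.36 to 0.40 in adults for Cox6a2 over Cox6a1, -0.37 to 0.16 at e13.5 and -0.17 to 0.10 in adults for Cox7a1 over Cox7a2, -0.28 to 0.19 at e13.5 and 0.20 to 0.26 in adults for Cox8b over Cox8a, and -0.18 to 1.18 at e13.5 and -0.18 to 0.62 in adults for Cox4i2 over Cox4i1. Called genes numbered 3710 to 7798 for age in KO and 2990 to 6965 in WT, 6 to 35 for KO over WT at e13.5, 0 to 19 in adults and 0 to 5 for the interaction. Called members numbered 3 to 5 for age in KO, 2 to 5 in WT and 0 elsewhere. Where a group was left with 1 library, that library was assumed to vary like the others.

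Some log2 fold changes changed sign with 1 library left out. Their ranges are given here over all alternatives of filter, scaling, tool, library set and block as well as those fits. For age in KO they ran from -0.51 to 0.54 for Cox7a2, -0.37 to 0.46 for Cox7a2l and -1.32 to 0.46 for Cox4i2, and in WT from -0.12 to 0.81 for Cox4i1 and -0.64 to 0.63 for Cox7a2l. For KO over WT at e13.5 they ran from -0.64 to 0.47 for Cox4i1, -0.74 to 0.56 for Cox6a1, -0.84 to 0.75 for Cox6a2, -1.37 to 0.66 for Cox7a1, -0.96 to 0.43 for Cox7a2, -0.49 to 0.83 for Cox7a2l, -0.91 to 0.26 for Cox8a and -1.13 to 0.35 for Cox8b. In adults they ran from -0.14 to 0.84 for Cox4i1, -0.43 to 1.43 for Cox4i2, -0.50 to 1.01 for Cox6a1, -0.07 to 0.68 for Cox6a2, -0.01 to 0.79 for Cox7a1, -0.17 to 0.43 for Cox7a2l, -0.31 to 0.66 for Cox8a and -0.05 to 0.86 for Cox8b. For the interaction they ran from -0.06 to 1.07 for Cox4i1, -0.79 to 1.07 for Cox4i2, -0.46 to 1.18 for Cox6a1, -0.42 to 1.20 for Cox6a2, -0.25 to 1.80 for Cox7a1, -0.69 to 0.65 for Cox7a2l and -0.03 to 1.18 for Cox8a.

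Genes called for KO over WT at e13.5 numbered 12, against 87 without a filter, 30 in DESeq2 and 5 from the 4 libraries alone. In adults they numbered 8, against 64 without a filter, 13 with median-of-ratios scaling, 54 in DESeq2 and 2 from the 4 libraries alone, and for the interaction 0, against 30 without a filter and 7 in DESeq2. The log2 fold change of KO over WT at e13.5 turned to 0.03 without a filter, 0.12 with median-of-ratios scaling, 0.04 with upper quartile scaling, 0.04 without mitochondrial, ribosomal RNA and haemoglobin genes and 0.12 in DESeq2 for Cox6a1. For Cox7a2l it turned to 0.04, 0.11, 0.05, 0.04 and 0.11 under the same settings and to 0.00 from the 4 libraries alone. Against the 7 common subunits, a comparison chosen after the data were seen, the age change of Cox4i1 was -0.19 in KO and -0.10 in WT. Its edgeR log2 fold change in KO stayed between 0.23 and 1.29 over the 16 alternatives. The median log2 fold change of all genes with age was -0.35 in KO and -0.39 in WT with upper quartile scaling, and -0.26 in KO with median-of-ratios scaling, against -0.15 in KO and -0.26 in WT with TMM. The cause of these shifts was not tested.

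Replicate numbers are shared by the groups but the labels tie nothing to them. Deviations of same-numbered libraries correlated at 0.55 between KO and WT at e13.5, 0.31 between KO and WT adults, 0.13 between ages in KO and -0.03 in WT. With a replicate block the ratio differences were the same (4.10, 3.74 and 5.70), and an exact sign-flip test over 4 pairs gave p = 0.125, the smallest it can give. The block moved no count of called genes by over 1.5 times, gave 5 called members for age in each genotype, and turned Cox7a2l to 0.01 for age in KO and 0.02 for KO over WT at e13.5. The search for near-identical copies found none, so leaving them out gave no other value.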

Other observations

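Other proteins of muscle that exist as isoforms or partner forms were described from a list of 11 genes, of which 10 were tested. In each genotype 4 rose and 3 fell with age, where 41.4% of all genes were called in KO and 38.9% in WT. Ckmt2, the creatine kinase of muscle mitochondria, stood at 2800 and 2802 CPM in KO adults and 2688 and 2618 CPM in WT adults, against 23.4 and 2.53 CPM in KO embryos and 22.1 and 7.58 CPM in WT embryos. It rose by 7.76 ± 1.15 on the log2 scale in KO and 7.48 ± 1.14 in WT (edgeR, adjusted p = 9.99e-04 and 0.00117). Mb, the oxygen-binding myoglobin, rose by 5.53 ± 0.72 in KO and 4.98 ± 0.70 in WT (edgeR, adjusted p = 5.45e-04 and 8.37e-04). Tnni1, the troponin I form of slow skeletal and fetal heart muscle, had 1 and 1 counts in KO adults and 2 and 3 counts in WT adults, against 49048 and 29902 counts in KO embryos and 61378 and 39670 counts in WT embryos.

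Of 4 other paralogs of complex IV subunits, 2 were tested. Cox6b2, known as the testis form of subunit VIb, had 31 and 7 counts in KO adults and 13 and 10 counts in WT adults, against 219 and 175 counts in KO embryos and 203 and 175 counts in WT embryos. All adult libraries were below all embryonic ones, and its log2 fold change was -3.03 ± 0.75 in KO and -3.40 ± 0.77 in WT (edgeR, adjusted p = 0.0106 and 0.00779).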
